A study of Homo sapiens with 2 samples.

Results

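The oncofetal genes of hepatocellular carcinoma, genes that are active in fetal liver, quiet in most adult liver and active again in many liver cancers, were followed here as 6 named mRNAs: AFP, GPC3, LIN28B, IGF2BP1, IGF2BP2 and IGF2BP3. They were taken by symbol from a deposited table of 14914 features, where all 6 had a row and all 6 passed the filter used below. The assay was RIP-seq, sequencing of the RNA that is immunoprecipitated with a protein, in HUH7, an established human hepatocellular carcinoma line. The IP group was 1 library of RNA recovered with CSTF2 and the Input group 1 library of input RNA from the same line, and the labels name no antibody, tag, treatment or genetic change. They also do not say whether both libraries came from 1 culture, so a difference between cultures and a difference between IP and Input cannot be told apart. The study asked which RNAs of HUH7 cells CSTF2 may bind.

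CSTF2, or CstF-64, binds RNA within the cleavage stimulation factor. It contacts U-rich or GU-rich RNA downstream of the poly(A) signal of nascent transcripts, where the mRNA 3′ end is cut. Of the 6 genes, 4 meet in the let-7 pathway. LIN28B blocks the maturation of let-7 microRNAs, let-7 microRNAs repress many fetal genes, and LIN28B and the IGF2BP genes are textbook let-7 targets. The IGF2BP proteins bind and stabilise mRNAs in the cytoplasm. AFP is a major serum protein of the fetus, and GPC3 is a heparan sulfate proteoglycan anchored to the cell surface.

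The let-7 seed is shown first because its matches are a sequence feature that most of the 6 mRNAs share. The mRNAs with a match are the textbook let-7 targets named above, so the matches are no independent finding. Capitals mark the seed (bases 2 to 8) in the microRNA, credited to RefSeq on GRCh38.p14, and its 7-base match, CTACCTC, in the mRNAs.
hsa-let-7a-5p: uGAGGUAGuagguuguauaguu
IGF2BP1 chr17:49051069-49051089, plus strand: aagtaaaCTACCTCaaggtat
IGF2BP2 chr3:185644214-185644234, minus strand: gaagaagCTACCTCaggtgtt
IGF2BP3 chr7:23311789-23311809, minus strand: tactcaaCTACCTCaggtatt
LIN28B chr6:105078820-105078840, plus strand: gcaaagtCTACCTCatgcaag
Each of these sites lies in the 3′ untranslated region of the gene's principal GENCODE v29 transcript (GRCh38) and is followed by an A. Counting every match to the 7 bases, IGF2BP1 held 4 in 6206 bases, of which 3 were followed by an A. LIN28B held 4 in 4549 bases, of which 2 were followed by an A. IGF2BP2 held 1 in 1792 bases and IGF2BP3 1 in 2153 bases. AFP and GPC3, with 554 and 379 bases of 3′ untranslated region, held no match. The search read the mRNA strand only. Of 18945 protein-coding genes with a 3′ untranslated region, 8.60% held at least 1 match and 0.164% held at least 3. Among regions within 20% of the same length, 29.9% matched for IGF2BP1, 23.3% for LIN28B, 11.2% for IGF2BP2 and 12.1% for IGF2BP3. A match is a stretch of letters and not a measured site.

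The poly(A) signal marks the 3′ end that CSTF2 helps to form. Within the last 30 bases of the principal transcript, 4 of the 6 mRNAs had the hexamer AATAAA, shown in capitals, as did 51.2% of 19584 protein-coding genes.
GPC3 chrX:133535745-133535774, minus strand: ttgaaaaaaAATAAAttgctcaAATAAAaa
IGF2BP1 chr17:49055621-49055650, plus strand: cataatgAATAAAcgtcctctatcaccatt
IGF2BP3 chr7:23310209-23310238, minus strand: cagAATAAAttttttcatcatttaggtgca
LIN28B chr6:105083303-105083332, plus strand: taaaAATAAAacatataacgttggcattta
AFP and IGF2BP2 had neither AATAAA nor the variant ATTAAA in that window of the annotated transcript, as in 36.7% of genes. The genomic sequence beyond the cut, where CSTF2 is known to bind, was not analysed here.

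The table gives RPKM, reads scaled to gene length and library depth, and whole reads could be recovered from it, 3220045 in the IP library and 9517885 in the Input library. With 1 library a group there is no replicate error and no test, and the 95% intervals below cover counting error only. The mRNA of CSTF2 itself had 487 RPKM (IP) and 6.97 RPKM (Input), a ratio of 69.9 (59.2 to 83.1). Of 12 hepatocyte markers, 12 were listed, with ALB at 200 RPKM (IP) and 254 RPKM (Input). Of the leukocyte and stromal markers, 3 of 6 and 3 of 5 were listed, with summed levels of 8.43 and 7.19 RPKM in the IP and 7.26 and 8.56 RPKM in the Input. The leukocyte marker CD68 had 3.12 RPKM (IP) and 0.576 RPKM (Input), a ratio of 5.42 (2.57 to 12) on 22 and 12 reads. The other listed leukocyte markers, LYZ and CD14, had ratios of 0.455 (0.115 to 1.31) and 0.9 (0.567 to 1.39). The 4 endothelial and 5 erythroid markers, PTPRC, COL1A1 and the other markers with no value were not analysed here.

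None of the 6 oncofetal mRNAs was at least 2-fold higher or lower in the IP than in the Input. The measure was the log2 ratio, log2((IP + 1)/(Input + 1)) of RPKM, where the pseudocount of 1 RPKM understates the change of low features. A filter of 1 RPKM on the mean of both libraries left 9880 features. Of these, 9.88% reached 2-fold on the higher side, 6.83% on the lower side and 83.3% lay within 2-fold, so a count of 0 among 6 is near the background. Among nuclear protein-coding genes alone, the class of all 6 members, 5.73% were at least 2-fold higher and 5.19% lower. At 1.5-fold, 1 of the 6 was higher, IGF2BP1, and none was lower, beside 26% and 15% of all features. IGF2BP1 was 1.64-fold higher in the IP by RPKM ratio, LIN28B 1.28-fold lower, and the other 4 lay between 1.14-fold lower and 1.08-fold higher. The median log2 ratio of the 6 was -0.12, against 0.17 over all features and 0.15 over 7613 nuclear protein-coding genes. By log2 ratio, 1 of the 6 lay above the median of all features and 5 below it. Summed over the 6 mRNAs, 1758 reads came from the IP and 5339 from the Input, which was 0.0546% of the IP reads and 0.0561% of the Input reads.

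**Figure D1:**
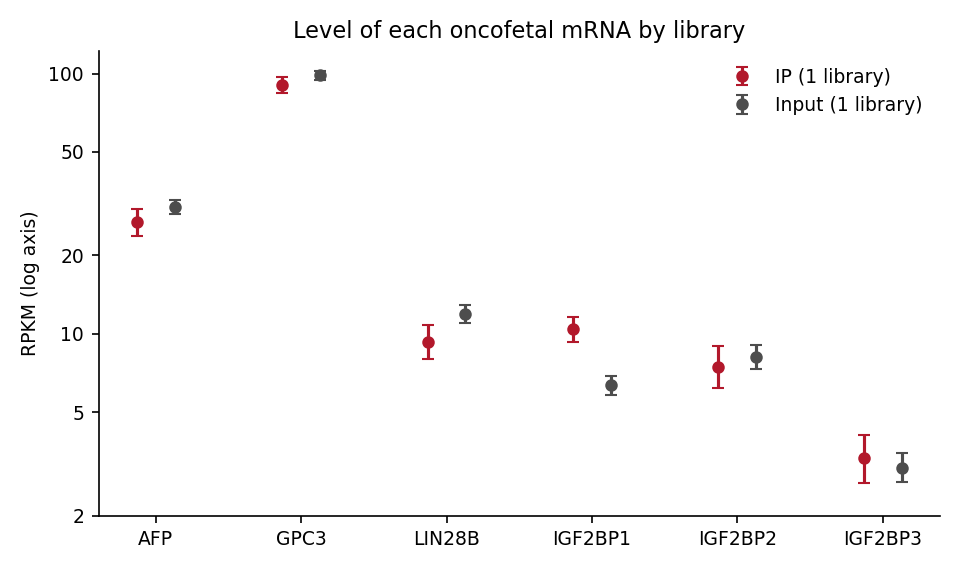
RPKM (log axis) of the 6 oncofetal mRNAs in the IP library (red, left) and the Input library (grey, right), with 1 library each; bars are exact 95% Poisson intervals of the read number. GPC3 stood highest at 90.0 RPKM (IP) and 98.4 RPKM (Input), and IGF2BP1 was the mRNA whose IP interval lay above its Input interval.

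GPC3 (ENSG00000147257.13, chromosome X, 133535745 to 133985895, minus strand) was the most abundant of the 6 per length in both libraries. This protein-coding gene spans 450151 bp, of which 2711 bp are exonic. The IP held 786 reads (90.0 RPKM), the Input 2540 reads (98.4 RPKM). Its level was above that of 98.5% of nuclear protein-coding genes past the filter in each library. The ratio was 0.915 (0.843 to 0.991), so its counting interval lay just below 1.

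AFP (ENSG00000081051.7, chromosome 4, 73431138 to 73456174, plus strand), the serum marker most used for this cancer, came next in level. It has 3259 bp of exon. The IP held 282 reads (26.9 RPKM), the Input 952 reads (30.7 RPKM). The ratio was 0.876 with an interval that began at 0.764 and just reached 1. Neither AFP nor GPC3 shares exonic bases with another annotated gene. The ratio of GPC3 was 1.04 times that of AFP (0.893 to 1.22), so these counts did not separate the pair.

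LIN28B (ENSG00000187772.7, chromosome 6, 104936616 to 105083332, plus strand) had the lowest ratio of the 6. It encodes the RNA-binding protein that blocks let-7 maturation and has 6002 bp of exon, of which 67 bp overlap the antisense gene LIN28B-AS1. The IP held 180 reads (9.31 RPKM), the Input 681 reads (11.9 RPKM). The ratio was 0.781 (0.659 to 0.922) and the log2 ratio -0.33. Of the 9880 features, 24.2% had a lower log2 ratio.

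IGF2BP1 (ENSG00000159217.9, chromosome 17, 48997412 to 49055650, plus strand) was the 1 member whose interval lay above 1. Its exons cover 9109 bp, the longest of the 6, and 113 bp of them overlap antisense transcripts named only by clone. The IP held 305 reads (10.4 RPKM), the Input 551 reads (6.36 RPKM). The ratio was 1.64 (1.42 to 1.89) and the log2 ratio 0.63, and 76.3% of features had a lower log2 ratio. The authors' deposited table gives it a log2 fold change of 0.71.

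IGF2BP2 (ENSG00000073792.15, chromosome 3, 185643739 to 185825056, minus strand) is the paralog that is also expressed in many adult tissues. The IP held 114 reads (7.48 RPKM), the Input 367 reads (8.14 RPKM). The ratio was 0.918, and its interval of 0.737 to 1.14 included 1.

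IGF2BP3 (ENSG00000136231.13, chromosome 7, 23310209 to 23470467, minus strand), the paralog most restricted to fetal tissue and tumours, was the lowest of the 6 in both libraries. The IP held 91 reads (3.32 RPKM), the Input 248 reads (3.06 RPKM). The ratio was 1.08 (0.843 to 1.38), and with log2 ratios centred on the median of all features its value changed sign, at -0.08 against 0.09. Of its 8511 exonic bases, 1521 (17.9%) overlap MALSU1 on the other strand. MALSU1 was listed with 28 IP reads and 182 Input reads, a ratio of 0.455 (0.294 to 0.679), and strand is not stated to have been kept, so reads of the overlap cannot be told apart.

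Counting intervals lay above 1 for 1 of the 6 mRNAs and below 1 for 2 of the 6, GPC3 and LIN28B. Over the 9879 features past the filter with recovered reads, 36.1% had an interval above 1 and 20.1% below 1. Among the 2703 of them that were protein-coding with at least 300 reads in both libraries together, these shares were 45.2% and 29.5%. A counting interval that leaves out 1 was thus common in this table. The median RPKM ratio of all features past the filter was 1.18. The interval of IGF2BP1 lay above it, those of AFP, GPC3, LIN28B and IGF2BP2 below it, and that of IGF2BP3 around it. The share of all features with an interval above or below 1.18 was not computed, so these placements have no background.

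**Figure D2:**
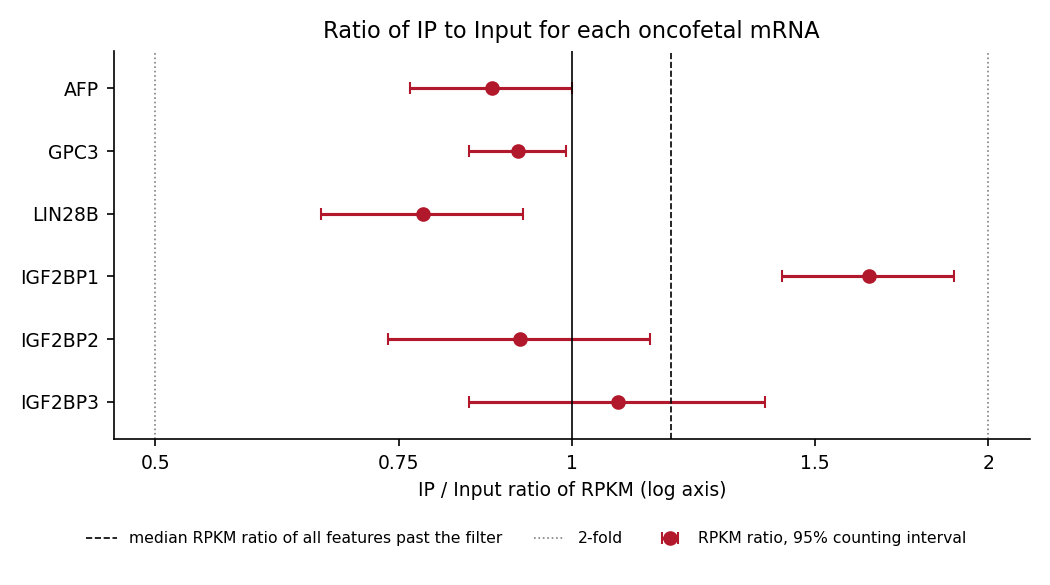
Ratio of IP to Input RPKM (log axis) of each oncofetal mRNA, with exact conditional 95% intervals from the reads of 1 library a group; the solid line is 1, the dashed line the median ratio of all features (1.18) and the dotted lines 2-fold. IGF2BP1 at 1.64 lay furthest to the right, and all 6 intervals lay inside the 2-fold lines.

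The 3 IGF2BP paralogs were compared directly, as a ratio of their IP to Input ratios with an exact conditional interval. The ratio of IGF2BP1 was 1.78 times that of IGF2BP2 (1.38 to 2.32) and 1.51 times that of IGF2BP3 (1.13 to 2.02). The ratio of IGF2BP3 was 1.18 times that of IGF2BP2 (0.847 to 1.65), which did not separate this pair. Each of the 15 pairs of the 6 mRNAs was taken as the higher ratio over the lower, and 6 had a 95% interval above 1. IGF2BP1 was the higher mRNA in 5 of these, and the other was IGF2BP3 over LIN28B at 1.39 (1.02 to 1.87). With the level widened to 99.67% for 15 pairs, 4 remained above 1, each with IGF2BP1 as the higher mRNA. Over IGF2BP3 that wider interval ran from 0.991 to 2.33, and over LIN28B, the largest of these differences at 2.09, from 1.51 to 2.92. These intervals compare 2 libraries and not 2 conditions with replicates. The share of pairs of other genes that separate in this way was not computed, so the counts of pairs have no background.

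The order of levels was partly different in the IP and the Input. In the IP, GPC3 and AFP were followed by IGF2BP1, LIN28B, IGF2BP2 and IGF2BP3, and in the Input by LIN28B, IGF2BP2, IGF2BP1 and IGF2BP3. In the IP, the Poisson interval of IGF2BP1 (9.26 to 11.6 RPKM) overlapped that of LIN28B (8.0 to 10.8), and that of LIN28B overlapped that of IGF2BP2 (6.17 to 8.98). Other neighbours in the IP did not overlap. In the Input, no neighbouring intervals of the 6 overlapped. IGF2BP1 had 5.84 to 6.91 RPKM there, below IGF2BP2 at 7.33 to 9.02.

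Among nuclear protein-coding genes, log2 ratios ran with gene length, and the 6 mRNAs span 2711 to 9109 bp. With these genes split into 5 equal classes by exonic length, the median log2 ratio was -0.30, 0.02, 0.16, 0.24 and 0.45 from the shortest class to the longest. IGF2BP1 lay 0.18 above the median of the longest class, where 65.1% of genes had a lower log2 ratio. IGF2BP3, in the same class, lay below its median (difference -0.36). GPC3, in the shortest class, lay 0.17 above that median with 58.3% of genes lower. LIN28B stood furthest from its class, the second longest, with a difference of -0.57 and 13.6% of genes lower. AFP and IGF2BP2 differed from their classes by -0.20 and -0.27. Over all features past the filter the order was not so regular, with medians of 0.11, -0.10, 0.10, 0.22 and 0.43. The part of length in these ratios was not tested.

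**Figure D3:**
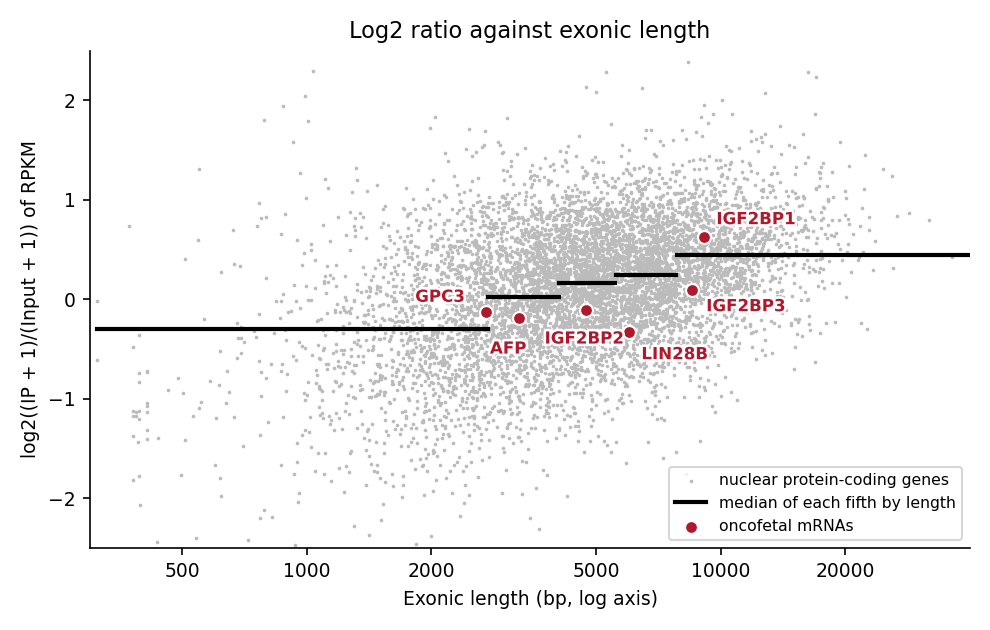
Log2 ratio of RPKM against exonic length (log axis) for 7612 nuclear protein-coding genes (grey), 19 of them outside the axes, with the 6 oncofetal mRNAs in red and the median of each length class as black bars. IGF2BP1 and GPC3 lay above the bar of their class and the other 4 below it.

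Genes with and without a match to the let-7 seed were set side by side, with no test. Over genes past the filter, the median log2 ratio was 0.19 for 676 genes with a match and 0.15 for 6844 without. It was 0.22 for 79 genes with at least 2 matches. Of the genes with a match, 5.77% reached 2-fold on the higher side and 2.37% on the lower side, beside 5.71% and 5.25% of those without. The groups were not matched for length. Matches were more frequent in longer 3′ untranslated regions. The share at least 2-fold lower was 16.4% in the shortest class of nuclear protein-coding genes and 0.328% in the longest. The part of length in this comparison was not tested. IGF2BP1 and LIN28B, with 4 matches each, had the highest and the lowest log2 ratio of the 6.

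Genes that work with each of the 6 are described by list, as counts past 2-fold beside the 9.88% higher and 6.83% lower of all features, or 5.73% and 5.19% of nuclear protein-coding genes. Features past the filter were counted. The albumin gene family, a cluster on chromosome 4 that includes AFP, had 3 listed members and none past 2-fold. ALB was 1.27-fold lower in the IP (ratio 0.788, 0.751 to 0.826), and GC, for the vitamin D-binding protein, had 2.61 RPKM (IP) and 3.27 RPKM (Input), a ratio of 0.799 (0.462 to 1.32). The list's median log2 ratio was -0.24.

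The 13 regulators of AFP, transcription factors that activate or silence it, had a median log2 ratio of 0.41, with 1 member past 2-fold on the higher side and none on the lower. That member was CEBPB, a liver-enriched bZIP factor, with 10.6 RPKM (IP) and 4.40 RPKM (Input), a ratio of 2.42 (1.72 to 3.38). Some of its exonic bases are shared with the antisense gene CEBPB-AS1. ZFHX3, a repressor of AFP, had 3.16 RPKM (IP) and 1.27 RPKM (Input), a log2 ratio of 0.88. The lowest were ZHX2, which silences AFP after birth in mice, at 0.19, and NR5A2, an orphan nuclear receptor, at 0.24. All 13 log2 ratios thus lay above the 0.17 of all features, while that of AFP lay below it.

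In the glypican family, GPC3 made up most of the summed level of 93.9 RPKM (IP) and 103 RPKM (Input). GPC1 was lower in the IP, with 0.572 RPKM against 1.45 RPKM in the Input on 12 and 90 reads, a ratio of 0.394 (0.196 to 0.723). That is 2.54-fold by ratio and less than 2-fold on the pseudocount scale. GPC6 had 2.16 RPKM (IP) and 1.85 RPKM (Input). GPC2, GPC4 and GPC5 were under the filter, with 1, 6 and 8 IP reads and 13, 20 and 10 Input reads. Of 13 genes for GPC3 processing and heparan sulfate synthesis, 6 passed the filter and none was past 2-fold (median 0.40). NDST1, a heparan sulfate sulfotransferase, had a ratio of 2.37 (1.87 to 3.01) and a log2 ratio of 0.91. FURIN, the protease that cleaves the GPC3 core protein, had 24.1 RPKM (IP) and 14.6 RPKM (Input). HS2ST1, another sulfotransferase, had a ratio of 0.567 (0.378 to 0.827), and EXT2, of the chain polymerase, 0.859 (0.527 to 1.35).

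In the LIN28 and let-7 pathway, 11 of 15 genes passed the filter, with none past 2-fold and a median log2 ratio of 0.34. By log2 ratio LIN28B was the lowest of them. Next by log2 ratio was MYC, for the transcription factor that activates LIN28B, at -0.27 on 22 IP reads and 84 Input reads. By plain RPKM ratio, HMGA2 at 0.75 (0.54 to 1.02) and MYC at 0.774 (0.461 to 1.25) lay below LIN28B at 0.781. These intervals overlapped that of LIN28B (0.659 to 0.922). HMGA1, for a chromatin protein, had 14.5 RPKM (IP) and 7.36 RPKM (Input) (log2 ratio 0.90). DGCR8, the partner of Drosha in microRNA processing, had a ratio of 2.17 (1.67 to 2.82). LIN28A, the paralog of LIN28B, was under the filter with 6 IP reads and 10 Input reads. The uridylyl transferases TUT4 and TUT7, listed under the older names ZCCHC11 and ZCCHC6 and named here after their values were seen, had ratios of 1.43 (1.05 to 1.92) and 1.74 (1.43 to 2.12).

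The 8 partner proteins of the IGF2BPs had no member past 2-fold and a median log2 ratio of 0.32. MATR3 and KHDRBS1, which encode nuclear RNA-binding proteins, were highest at 0.52 and 0.43. YBX1, for a cold shock domain protein, had 535 RPKM (IP) and 797 RPKM (Input), a ratio of 0.672 (0.647 to 0.698). PABPC1, for the cytoplasmic poly(A)-binding protein, had a ratio of 0.894 (0.824 to 0.968). Of 12 known IGF2BP target RNAs, 9 passed the filter, again with none past 2-fold and a median of -0.23. By log2 ratio, SRF and IGF2 were highest at 0.72 and 0.39, and LIN28B and ACTB lowest at -0.33 and -0.30. By plain RPKM ratio, HMGA2 (0.75) and MYC (0.774) were lowest. IGF2, the fetal growth factor mRNA that gave the family its name, was the most abundant of this list, with 996 RPKM (IP) and 758 RPKM (Input). YBX1, PABPC1, ACTB, HMGA1 and CD24 have pseudogene copies to which reads can be misassigned, and IGF2 shares exons with the readthrough gene INS-IGF2.

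Other fetal liver and hepatic progenitor markers went both ways. Of 14 genes, 8 passed the filter, with none past 2-fold and a median log2 ratio of 0.24. SOX9, a biliary and progenitor transcription factor, had 29.9 RPKM (IP) and 15.9 RPKM (Input), a ratio of 1.89 (1.65 to 2.15), and SOX4 had a log2 ratio of 0.60. CD24, for a small surface glycoprotein, had 19.3 RPKM (IP) and 37.6 RPKM (Input), a ratio of 0.513 (0.438 to 0.598). EPCAM, for an epithelial adhesion molecule, had a ratio of 0.674 (0.603 to 0.753). The spread of this list, from -0.93 to 0.87, was wider than that of the 6 oncofetal mRNAs, from -0.33 to 0.63. The 12 hepatocyte markers had 2 members at least 2-fold lower, APOA2 and TTR, none higher and a median of -0.26. APOA2 (945 bp) and TTR (2173 bp, 10 IP reads) fall in the shortest length class of nuclear protein-coding genes. In that class 16.4% of genes were at least 2-fold lower. APOA1, FGB and AHSG, also in that class, were within 2-fold.

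**Figure D4:**
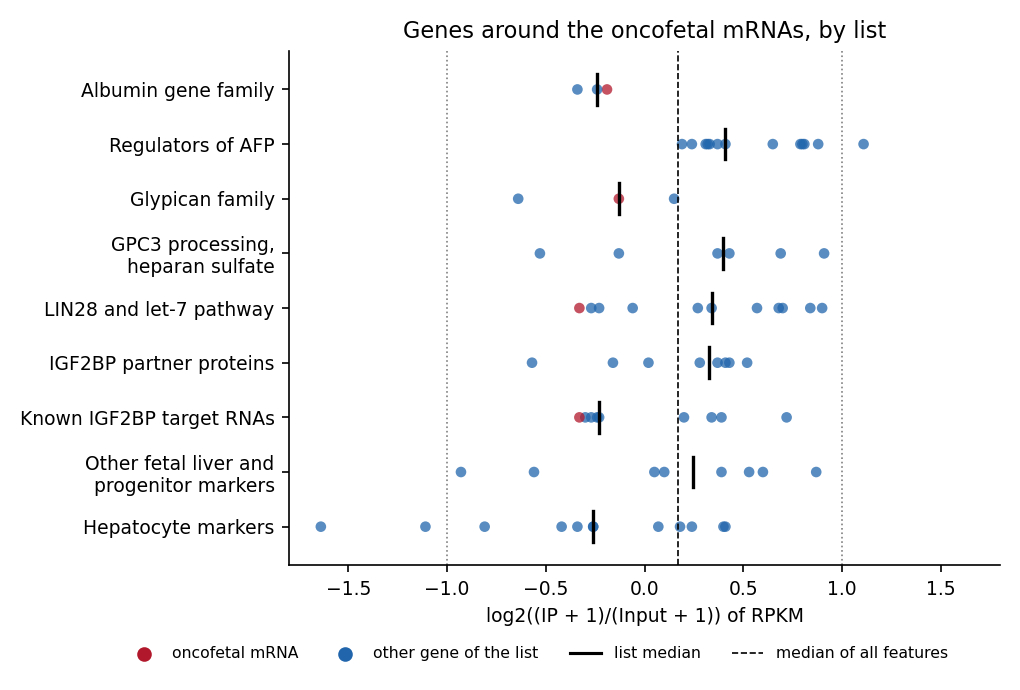
Log2 ratio of RPKM for the genes past the filter in each list (rows), with the oncofetal mRNAs in red, other genes in blue, the list median as a black bar, the median of all features (0.17) dashed and 2-fold dotted. AFP lay left of all 13 of its regulators. LIN28B was the lowest gene by this log2 ratio in both lists that hold it, though not by plain RPKM ratio.

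Among protein-coding genes past the filter, the nearest in the pair of log2(RPKM + 1) levels over the 2 libraries was HNRNPD for AFP, SET for GPC3, RSL24D1 for LIN28B, FZD5 for IGF2BP1, SPATS2L for IGF2BP2 and CHAC2 for IGF2BP3. The distances ran from 0.0042 to 0.056 log2 units. Near-identical pairs were common at low levels, with 43 genes within 0.1 of IGF2BP3 and 17 within 0.1 of IGF2BP1, against 1 within 0.1 of GPC3.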

How the data were processed

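The authors deposited 1 table with RPKM values of an IP and an Input library and, per the file headers, the log2 ratio between them. Per the labels' protocols, RNA was fragmented, copied from random hexamers and sequenced on an Illumina instrument. FastQC 0.12.0 and the build hg38 are named in the submitters' processing notes. No source used here gives the aligner, the counting program or the annotation. Whole reads and gene lengths were solved from the deposited RPKM and log2 values, assuming that the fold change adds a mean of 0.125 reads per library scaled to depth, with a tolerance of 0.01 reads, for 14913 of 14914 features. The recovered lengths of all 6 genes equal the exonic length in GENCODE v29 (GRCh38), the source of coordinates. This step was run on data simulated under the same assumption, which cannot check the assumption itself. Ratio intervals are exact conditional (Clopper-Pearson) 95% intervals. PCR reads are not independent molecules, so they may be too narrow. Python 3.11.15, scipy 1.17.1 and pandas 2.3.3 were used. The members and lists were chosen with earlier results of these data known. Named were the 6 genes, CSTF2, the nearest gene to each member and the 2 highest and 2 lowest genes of each list (all of lists with 6 or fewer measured). Genes named otherwise check a locus or a cell type, or were chosen after their values were seen. The alternatives were other pseudocounts, filters, scalings and fold thresholds.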

Additional observations from a re-analysis of the deposited data

How the results depend on the processing

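No paired analysis was possible because each group had 1 library. Of 73 values recomputed under the alternatives, 54 were labelled the same. For log2 ratios this meant a shift smaller than the distance from the middle of the counting interval to its end. For counts it meant a change of at most 1.5 times. The number of the 6 mRNAs at least 2-fold higher or lower stayed at 0 under every other pseudocount, filter and scaling run, and became 1 higher (IGF2BP1) at a threshold of 1.5-fold, where 26% of all features were higher. Centring on the median of all features moved GPC3 to -0.30. Rescaling by the trimmed mean of M values, a shift of 0.33 log2 units, moved AFP to -0.51, GPC3 to -0.46, LIN28B to -0.63, IGF2BP1 to 0.34 and the median of the 6 to -0.43. IGF2BP3 changed sign under both scalings, to -0.08 and -0.16, and dropped out with a filter of 5 RPKM. The 976 features at least 2-fold higher and 675 lower became 1830 and 1023 with a pseudocount of 0.1 RPKM, 186 and 295 with 5 RPKM, 327 and 407 with a filter of 5 RPKM, 579 and 1136 with the trimmed mean, 2569 and 1484 at 1.5-fold, and 151 and 149 at 4-fold. Centred on the median they were 684 and 944. The cause was not tested. Depth limits IGF2BP2 and IGF2BP3 most, with 114 and 91 reads in the IP.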
